A study of Mus musculus with 4 samples.

Results

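NR1D1 (REV-ERB alpha) silences genes through a corepressor complex built on NCOR1, and the genes that encode 5 parts of that complex were examined for NR1D1 peaks of their own: Ncor1, Hdac3, Tbl1x, Tbl1xr1 and Gps2. The members were chosen by name, from the known composition of the complex, and every peak overlapping the RefSeq span of a member or the 10 kb on either side was taken. They are 5 of 21887 protein-coding genes on chromosomes 1 to 19, X and Y. NR1D1 had been mapped by CUT&Tag, where a transposase tethered to an antibody inserts sequencing adapters into the DNA around the protein. The cells were primary vascular smooth muscle cells from the aorta of WT mice, grown in serum-containing medium and exposed for 24 h to vasostatin-2, a fragment of the secreted protein chromogranin A, or to PBS, the vehicle. Each treatment gave 1 NR1D1 library, and all libraries carry the label batch1. Libraries made with IgG in place of the NR1D1 antibody were not analysed here. The dose of vasostatin-2, the age of the mice and the number of mice behind a culture are not given in the sources used here, and peak lists hold no transcript levels with which to check the labelled cell type. With 1 library per treatment no value below has a replicate error and no treatment effect was tested. Intervals cover counting error only.

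NR1D1 is an unusual nuclear receptor in that it lacks the last helix that other receptors use to bind coactivators, and it therefore acts as a repressor when it holds its ligand, heme. It recruits NCOR1, a large scaffold protein, whose deacetylase-activating domain binds HDAC3 and switches on its activity against acetylated histones. TBL1X and TBL1XR1 are closely related WD40-repeat proteins that join the scaffold, bind histones and take part in the exchange of corepressors for coactivators, and GPS2 is a small subunit that also restrains inflammatory signalling. In mouse liver the NCOR1-HDAC3 complex that NR1D1 brings to chromatin is known for holding down lipid synthesis genes in a daily rhythm. The peaks described here lie at the genes that encode these partners and say nothing of where the partner proteins bind.

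The vasostatin-2 list held 3 peaks near the 5 genes (exact Poisson interval 0.619 to 8.77) among 8816 peaks. The PBS list held 3 (0.619 to 8.77) among 7377 peaks. Over all 21887 protein-coding genes there were 7964 pairs of a peak and a gene in the vasostatin-2 list and 8174 in the PBS list. These rates are over genes of all lengths, and the intervals of the member counts are too wide to set the counts apart from them. The member peaks fell at 2 genes in the vasostatin-2 list, Hdac3 and Gps2, and at 3 in the PBS list, Hdac3, Gps2 and Tbl1x. Among all protein-coding genes the share with such a peak was 28.0% for vasostatin-2 and 29.5% for PBS, and with 5 genes the member counts cannot be set apart from these shares. Hdac3 and Gps2 had peaks in both lists, like 17.5% of protein-coding genes, and Tbl1x in the PBS list alone, like 12.0%, while 10.5% had one in the vasostatin-2 list alone. Ncor1 and Tbl1xr1 had a peak in neither list, as was true of 60.0% of protein-coding genes. Of the 3 peaks in each list 2 had a counterpart in the other list, at Hdac3 and at Gps2, where 2649 of all 8816 vasostatin-2 peaks and 2628 of all 7377 PBS peaks had one. Hdac3 was also the 1 member with a peak less than 1 kb from one of its own ends, in both lists, a property of 7.19% of protein-coding genes (10.4% for vasostatin-2, 14.8% for PBS).

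**Figure D1:**
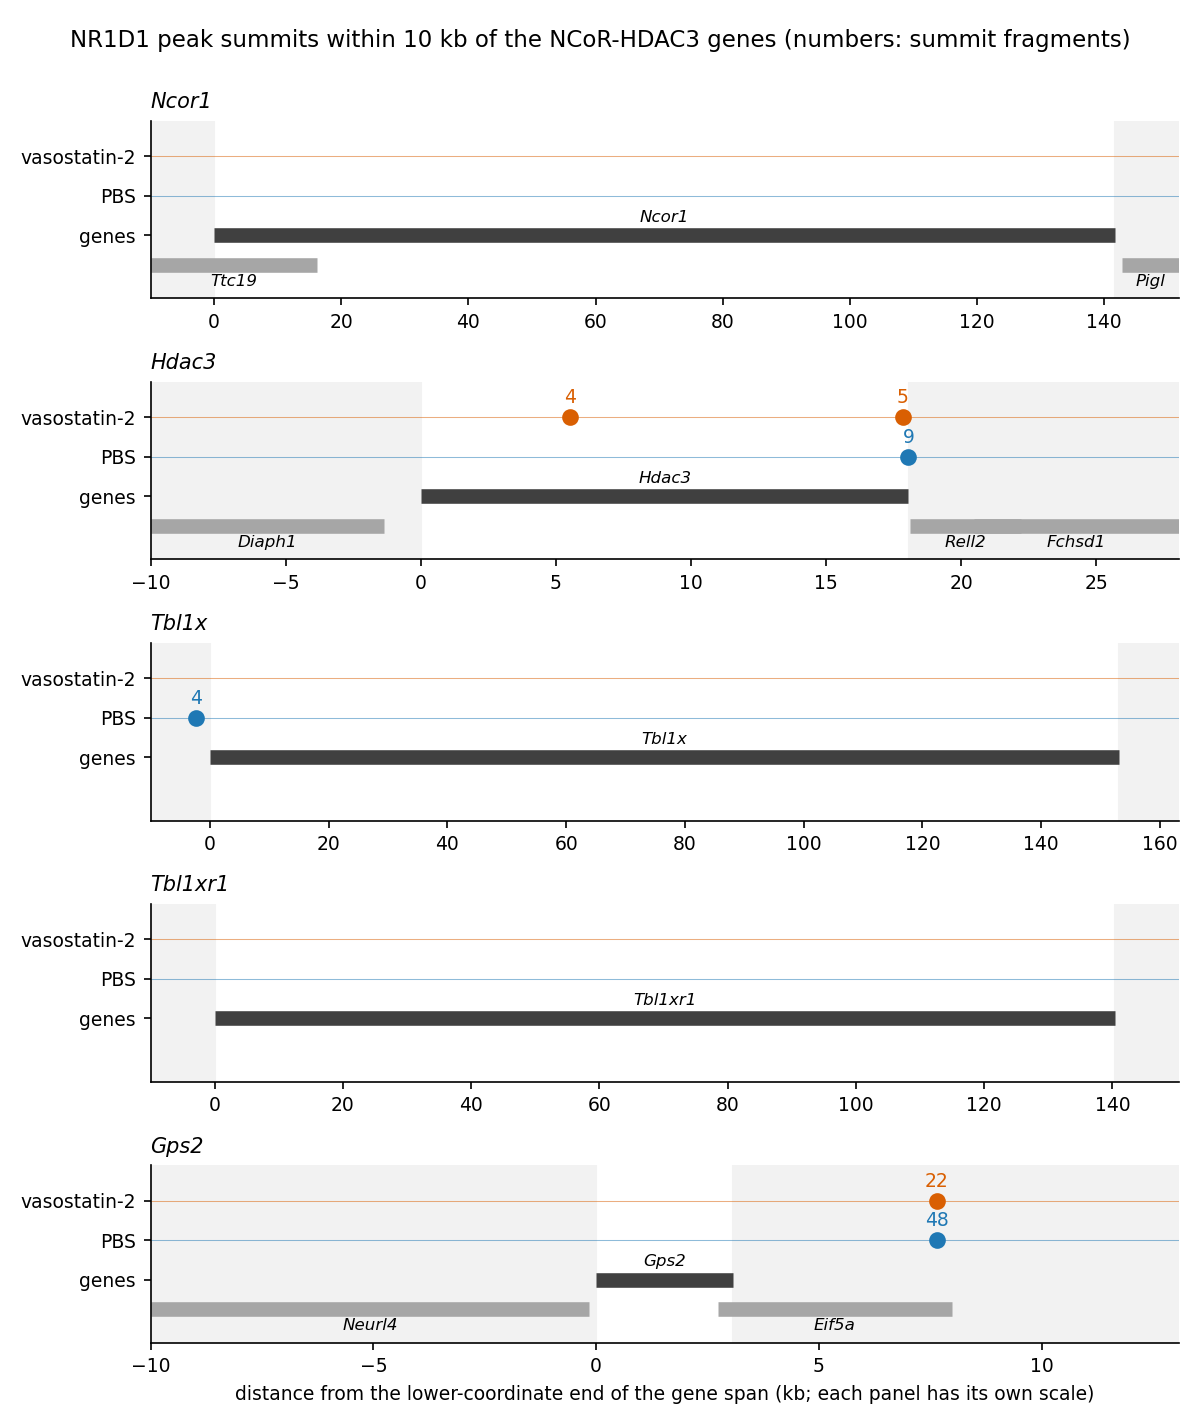
Positions of NR1D1 peak summits along each member gene (dark bar) and the 10 kb beside it (shaded), in kb from the lower-coordinate end of the gene span, with other protein-coding genes as grey bars; the numbers are fragments at the summit, and each panel has its own scale. Summits of both lists lie inside Hdac3 and, for Gps2, outside the gene in the neighbouring Eif5a. Tbl1x has 1 PBS summit outside the gene, and Ncor1 and Tbl1xr1 have none.

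Ncor1, the scaffold gene, spans 142 kb of chromosome 11, from 62315663 to 62457414 on mm10, on the minus strand. The nearest vasostatin-2 peak lay 33.9 kb beyond the low-coordinate end of the span, at 62281463 to 62281772, with 7 fragments at its summit and 4.94-fold enrichment. The nearest PBS peak lay on the same side, 37.3 kb away at 62278009 to 62278334, with 7 fragments and 4.92-fold enrichment. These sites do not overlap: the vasostatin-2 one lies in Ttc19 and the PBS one in Zswim7, the neighbouring genes. Tbl1xr1, one of the WD40-repeat genes, spans 140 kb of chromosome 3 (22076253 to 22216594) with no other protein-coding gene within 10 kb. Its nearest vasostatin-2 peak was 516 kb away, with 4 fragments, and its nearest PBS peak 1432 kb away, with 5 fragments. Both were weak peaks, since no listed peak in either library held fewer than 4 fragments at its summit. A site with fewer fragments would not be listed, so binding at Ncor1 or Tbl1xr1 was not detected rather than shown to be absent.

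The promoters of these genes are shown because no peak covered them in either list, and they can be read against a window that was covered, shown further on. Each is the RefSeq window of GRCm38.p6 from 250 bases before to 50 bases after an annotated start, in the direction of transcription. Capitals mark GGGCGG, the GC box bound by SP1, and no other motif searched was found in them. The Ncor1 window is chr11:62457283-62457582 on the minus strand, and the Tbl1xr1 window is chr3:22076402-22076701 on the plus strand.
Ncor1: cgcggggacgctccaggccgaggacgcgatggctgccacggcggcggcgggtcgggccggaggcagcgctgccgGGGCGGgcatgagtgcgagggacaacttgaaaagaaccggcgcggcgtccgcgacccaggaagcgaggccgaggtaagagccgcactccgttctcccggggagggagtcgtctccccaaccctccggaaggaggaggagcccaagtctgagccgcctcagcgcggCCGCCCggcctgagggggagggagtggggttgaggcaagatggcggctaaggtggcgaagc
Tbl1xr1: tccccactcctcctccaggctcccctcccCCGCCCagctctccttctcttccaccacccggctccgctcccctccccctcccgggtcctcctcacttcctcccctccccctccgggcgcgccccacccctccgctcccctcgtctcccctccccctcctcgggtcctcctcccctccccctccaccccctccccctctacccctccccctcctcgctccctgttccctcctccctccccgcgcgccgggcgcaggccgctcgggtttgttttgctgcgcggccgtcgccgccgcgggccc
The Ncor1 window has a GC content of 72.3% and holds GGGCGG at 2 places, 1 of them on the other strand, and the Tbl1xr1 window, at 76.3% GC, holds it at 1 place on the other strand.

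Longer genes had a peak more often, so each member was set beside genes of its own length. In the longest of 10 equally filled length classes, from 109 to 2390 kb, 51.8% of protein-coding genes had a peak in the vasostatin-2 list (95% Wilson interval 49.7 to 53.8) and 43.8% in the PBS list (41.7 to 45.9). Ncor1, Tbl1xr1 and Tbl1x all belong to that class, and 34.7% of its genes had a peak in neither list. For genes of Hdac3's class, 17.2 to 24.6 kb, the shares were 27.1% in the vasostatin-2 list and 30.8% in the PBS list. For genes of 1.54 to 4.17 kb, the class of Gps2, they were 20.1% in the vasostatin-2 list and 22.9% in the PBS list. The members with peaks in both lists are thus the 2 shortest of the 5.

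**Figure D2:**
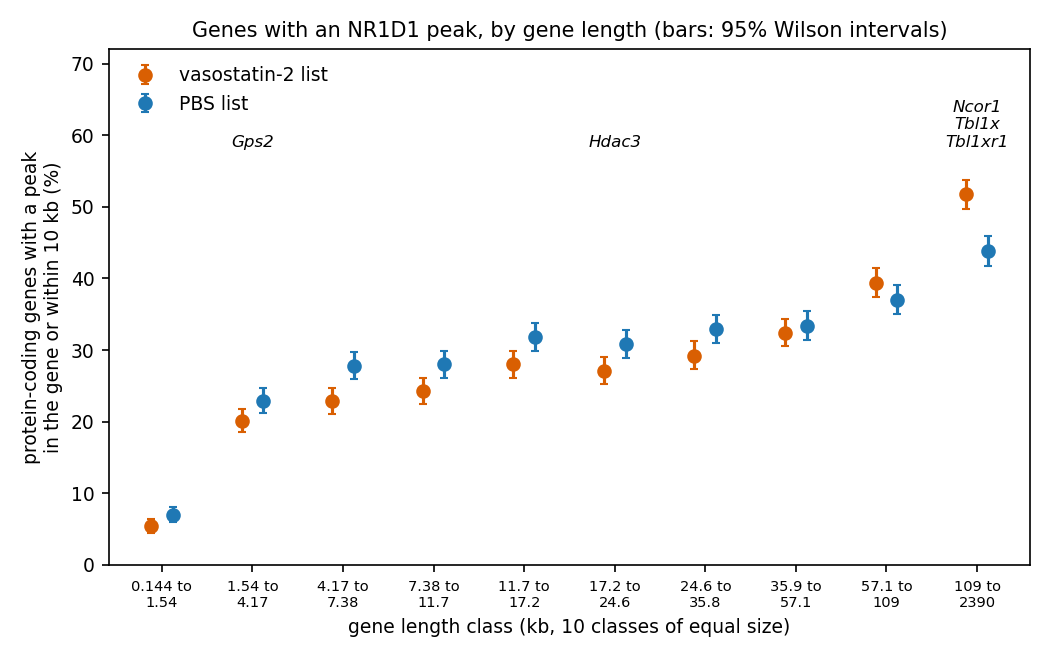
Share of protein-coding genes with an NR1D1 peak in the gene or within 10 kb (y axis, percent) in 10 gene length classes (x axis, kb), with 95% Wilson intervals, and the class of each member named above the points. The shares are lowest in the shortest class, at 5.39% for vasostatin-2 and 6.94% for PBS, and highest in the longest, at 51.8% and 43.8%, where Ncor1, Tbl1x and Tbl1xr1 sit.

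Tbl1x, the other WD40-repeat gene, spans 153 kb of chromosome X (77509549 to 77662722) on the plus strand. The vasostatin-2 list had no peak there, and its nearest one was 910 kb away. The PBS list had 1 peak, at 77507048 to 77507324, with 4 fragments at the summit (exact Poisson interval 1.09 to 10.2). It lay outside the gene, its summit 2411 bp before the span and 4089 bp upstream of the annotated start. Its enrichment was 3.82-fold, with a -log10 p of 4.73 and a -log10 q of 1.65, and 5.91% of PBS peaks had a lower fold. It is therefore among the weakest peaks of its list. Most PBS peaks of that size have no counterpart: it was found for 133 of the 1675 with 4 to 5 fragments, or 7.94%.

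The strongest peak of the group lay beside Gps2, a gene of 3.08 kb on chromosome 11 (69913980 to 69917056, plus strand). The vasostatin-2 peak covered 69921179 to 69921792 and held 22 fragments at its summit (13.8 to 33.3), with 8.70-fold enrichment, a -log10 p of 18.13 and a -log10 q of 13.29. The PBS peak covered 69921184 to 69921780 and held 48 fragments (35.4 to 63.6), with 13.0-fold enrichment, a -log10 p of 42.27 and a -log10 q of 36.96. The 2 summits fell on the same base, 69921620, and the peaks shared 597 bases, which is 97.2% of the vasostatin-2 peak and 100% of the PBS peak. Within its own list the vasostatin-2 peak had a higher fold than 95.1% of peaks and the PBS peak a higher fold than 98.8%. Most peaks of that size were shared, 193 of 213 vasostatin-2 peaks (90.6%) and 393 of 427 PBS peaks (92.0%) in the class of 21 to 49 fragments. The local background was 1.64 fragments in the vasostatin-2 library and 2.77 in the PBS library.

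That peak was not at Gps2 itself. Its summit was 4564 bp beyond the end of the Gps2 span and 7.64 kb from its start, inside the neighbouring gene Eif5a, 338 bp from the end of the Eif5a span (69916712 to 69921958). Eif5a encodes a translation factor that carries the modified amino acid hypusine, and it is transcribed from the minus strand towards Gps2, the spans having 345 bases in common. RefSeq lists 6 starts for Eif5a, of which 2 lay under the peak in each list, and the summit was 234 bp upstream of the nearest one. The Gps2 promoter held no peak in either list. Such cases were common under the 10 kb rule: among all pairs of a peak and a protein-coding gene, the summit was nearer to an end of another gene in 28.9% of pairs in the vasostatin-2 list and 33.4% in the PBS list.

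The Gps2 promoter, which no listed peak covered, and the Eif5a window under the shared summit are shown for comparison, from the same RefSeq table and in the direction of transcription. Capitals mark the motifs found, CACGTG (the E-box bound by CLOCK and BMAL1) and GGGCGG. The Eif5a window is chr11:69921337-69921636 on the minus strand and lies wholly under the peak of both lists, and the Gps2 window is chr11:69913770-69914069 on the plus strand.
Eif5a: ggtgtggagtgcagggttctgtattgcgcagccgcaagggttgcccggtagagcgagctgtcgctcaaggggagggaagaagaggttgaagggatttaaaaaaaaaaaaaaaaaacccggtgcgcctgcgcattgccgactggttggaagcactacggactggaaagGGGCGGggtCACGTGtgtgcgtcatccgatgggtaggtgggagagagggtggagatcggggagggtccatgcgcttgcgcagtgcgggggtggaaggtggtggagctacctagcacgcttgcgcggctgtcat
Gps2: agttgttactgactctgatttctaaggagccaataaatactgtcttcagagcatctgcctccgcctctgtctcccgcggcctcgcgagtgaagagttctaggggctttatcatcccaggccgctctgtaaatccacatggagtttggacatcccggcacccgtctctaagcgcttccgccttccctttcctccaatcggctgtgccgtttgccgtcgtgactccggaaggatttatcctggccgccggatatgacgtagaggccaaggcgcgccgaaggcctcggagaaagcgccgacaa
The Eif5a window holds CACGTG and GGGCGG once each, 3 bases apart, and the Gps2 window holds none of the motifs searched. Neither holds AGGTCA, the half-site of NR1D1. Windows of other Eif5a starts hold it once, at 69921183 to 69921188, which is 435 bp from the summit, inside the vasostatin-2 peak near its edge and across the edge of the PBS peak, which starts at 69921184.

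Both strands were searched for AGGTCA, for TAGGTCA, which includes it, for RevDR2, a pair of AGGTCA in the same direction 2 bases apart, for CACGTG, for GGGCGG and for the ETS factor motif CCGGAAGT. In the 5 windows listed for 4 members (Ncor1 with 2, Tbl1x, Tbl1xr1 and Gps2 with 1 each) GGGCGG was found in 3 and every other motif searched in 0. Of all 32851 windows of that length in the table, the share holding AGGTCA was 16.3%, TAGGTCA 2.61%, RevDR2 0.00913%, CACGTG 7.15%, GGGCGG 35.7% and CCGGAAGT 3.89%. A match describes letters in a window and is no evidence of binding, and the absence of one says nothing of sites elsewhere in the gene.

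Hdac3, which encodes the deacetylase, was the member with a peak at its own end in both lists. The gene spans 18.0 kb of chromosome 18, from 37936971 to 37955015, and its high-coordinate end is 38 bases from Rell2, a gene that starts its span at 37955054. At that end the vasostatin-2 peak covered 37954711 to 37954934 and held 5 fragments at its summit (1.62 to 11.7), with 4.25-fold enrichment, a -log10 p of 5.33 and a -log10 q of 2.14. The PBS peak covered 37954788 to 37955114 and held 9 fragments (4.12 to 17.1), with 6.22-fold enrichment, a -log10 p of 8.97 and a -log10 q of 5.13. The counting intervals of the 2 libraries overlap. The vasostatin-2 summit was 221 bp inside the end of Hdac3, and the PBS summit 2 bp inside it, 41 bp from Rell2, into which the PBS peak ran for 61 bases. Which of Hdac3 and Rell2 a peak at this junction belongs to cannot be told apart from position. The source of starts and strands used here lists none for Hdac3, so whether this end is its promoter was not examined.

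The Hdac3 pair matched less closely than the Gps2 pair. It had 147 bases in common, 65.6% of the vasostatin-2 peak and 45.0% of the PBS peak, and its summits were 219 bp apart, against 0 bp for the Gps2 pair. It no longer counted as shared when an overlap of 50% of both peaks or summits within 200 bp were required. The vasostatin-2 list had a further peak inside Hdac3, at 37942465 to 37942688, 5522 bp from the low-coordinate end. That peak had 4 fragments (1.09 to 10.2), 3.54-fold enrichment, a -log10 p of 4.16 and a -log10 q of 1.31, the lowest -log10 q that the vasostatin-2 list holds, and 1.23% of vasostatin-2 peaks had a lower fold. The PBS list had no peak there, and a PBS counterpart was found for 126 of the 2354 vasostatin-2 peaks with 4 to 5 fragments, or 5.35%.

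Both shared pairs held fewer fragments in the vasostatin-2 library, which was the deeper one by a factor of 1.32 inferred from the background in the peak values. At the Gps2 pair the depth-scaled log2 ratio of summit fragments, vasostatin-2 over PBS, was -1.52 (95% Clopper-Pearson interval -2.32 to -0.77), a ratio of 0.348. At the Hdac3 pair it was -1.25 (-3.17 to 0.49), a ratio of 0.421 whose interval includes equal signal. Most shared pairs had the same direction. Of all 2651 shared pairs 84.0% were lower in vasostatin-2 after depth scaling, with a median log2 ratio of -0.62 (-0.22 without the scaling), and of the 1172 at ends of protein-coding genes 95.6% were, with a median of -0.85. For pairs of at least 30 fragments the median was -1.06 over 352 pairs, 98.0% of which were lower in vasostatin-2, and 13.6% of them had a lower ratio than Gps2. For pairs of fewer than 30 fragments it was -0.76 over 820 pairs, and 13.4% had a lower ratio than Hdac3. The range from the 5th to the 95th percentile was -1.73 to -0.28 for the first class and -1.51 to 0.02 for the second, and each member lay within that of its class. Over all shared pairs it was -1.51 to 0.41, and Gps2, at -1.52, lay just below it. The size of the ratio depends on the scaling. At Gps2 it was -1.13 without depth scaling, -0.9 relative to the median of all shared pairs and -0.58 from the authors' fold enrichments. At Hdac3 the same settings gave -0.85, -0.63 and -0.55.

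**Figure D3:**
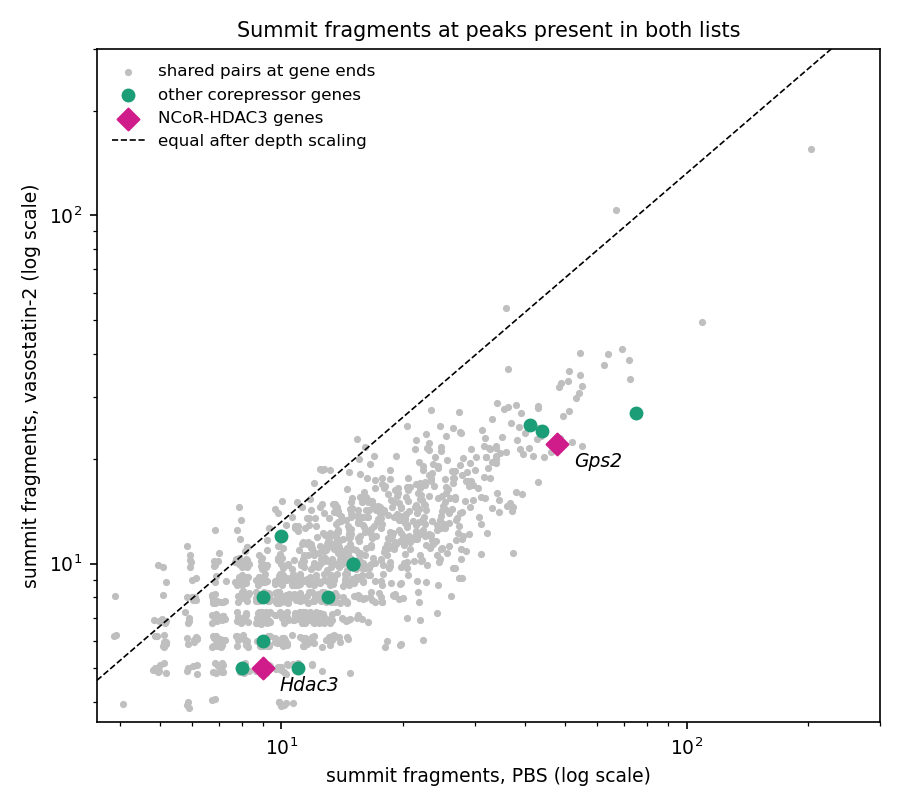
Fragments at the summit in the vasostatin-2 library (y axis, log scale) against the PBS library (x axis, log scale) for 1172 peak pairs shared at gene ends (grey, spread slightly to separate equal counts), for 11 shared pairs at other corepressor genes (green, at gene ends or not) and for the 2 member pairs (diamonds). The dashed line is equal signal after division by the depth factor of 1.32; Gps2 at 22 against 48 and Hdac3 at 5 against 9 lie below it, as most pairs do.

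Other genes had nearly the same fragment numbers as the member pairs, by the distance between log2 fragments in the 2 lists over 1171 other shared gene-end pairs. For Gps2 the nearest were pairs at ends of Rab40c (23 fragments in vasostatin-2, 47 in PBS), Ino80b, a subunit of the INO80 chromatin remodeller (21 in vasostatin-2, 47 in PBS), and Ccdc9 (22 in vasostatin-2, 52 in PBS). For Hdac3, 10 pairs had exactly 5 fragments in vasostatin-2 and 9 in PBS, and those closest in fold were at Cdkn2c, a cell cycle inhibitor, Cndp2, a dipeptidase, and Ezh2, the methyltransferase of Polycomb. Likeness over 2 libraries says only that the counts are alike.

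Other corepressor genes give the members a point of comparison. Of 18 such genes (genes of the SIN3, NuRD, CoREST and class II deacetylase groups, with the methyl-DNA reader Zbtb33) 10 had a peak in the gene or within 10 kb in the vasostatin-2 list and 12 in the PBS list, beside 28.0% and 29.5% of all protein-coding genes. Peaks within 1 kb of an end were found at 5 of 18 in the vasostatin-2 list and 6 of 18 in the PBS list, beside 10.4% and 14.8%. No test was made of these counts, and the list was chosen with other results of these libraries known. The shares are over genes of all lengths, and the 18 genes, from 5.16 kb at Sap30 to 870 kb at Hdac9, were not matched for length. Peaks nearer to another gene are counted too, such as the Mta2 peak of the PBS list, 75 bp from an end of Tut1. The genes with an end peak in both lists were Hdac1 and Hdac2, the deacetylases of SIN3 and NuRD, Rbbp4 and Rbbp7, their histone chaperones, and Mbd3, a NuRD subunit. Sap30, which encodes a SIN3 subunit, had one in the PBS list alone, like 7.58% of protein-coding genes.

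Mbd3 had the largest of these end peaks, with 24 fragments and 8.46-fold enrichment in vasostatin-2 and 44 fragments and 11.5-fold enrichment in PBS. Its summits were 1 bp apart, 166 bp upstream of the annotated start in vasostatin-2 and 165 bp upstream in PBS, and its depth-scaled log2 ratio was -1.27 (-2.06 to -0.52). Hdac2 had 8 fragments in vasostatin-2 and 13 in PBS, Rbbp4 10 in vasostatin-2 and 15 in PBS, and Rbbp7 6 in vasostatin-2 and 9 in PBS. At the end of Hdac1 the vasostatin-2 summit held 5 fragments and the PBS summit 11. As at Hdac3, the summits of these deacetylase and chaperone genes held 15 fragments or fewer in either list. The log2 ratio was below 0 at all 11 shared pairs of the 18 genes, from -1.87 to -0.14 with a median of -1.08, and its interval lay wholly below 0 at 3 of them, those of Mbd3 and of 2 Sin3a sites. Before depth scaling 10 of the 11 had fewer fragments in vasostatin-2, and Kdm1a, the histone demethylase gene of CoREST, had 12 in vasostatin-2 and 10 in PBS. The sign depends on the scaling at 3 of these pairs. Scaled by the median of all shared peaks, the log2 ratio was 0.05 at Hdac5 and 0.49 at Kdm1a, and taken from the authors' fold enrichments it was 0.12 at 1 Sin3a site and 0.04 at Kdm1a, with the other pairs below 0 under both.

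The Mbd3 and Hdac2 promoters are shown because peaks of both lists covered them, unlike the windows at Ncor1, Tbl1xr1 and Gps2. They come from the same RefSeq table, and capitals mark GGGCGG on either strand. The Mbd3 window is chr10:80399482-80399781 on the minus strand, of which 247 bases were under the vasostatin-2 peak and 287 under the PBS peak, and the Hdac2 window is chr10:36974294-36974593 on the plus strand, with 248 bases under the vasostatin-2 peak and 249 under the PBS peak.
Mbd3: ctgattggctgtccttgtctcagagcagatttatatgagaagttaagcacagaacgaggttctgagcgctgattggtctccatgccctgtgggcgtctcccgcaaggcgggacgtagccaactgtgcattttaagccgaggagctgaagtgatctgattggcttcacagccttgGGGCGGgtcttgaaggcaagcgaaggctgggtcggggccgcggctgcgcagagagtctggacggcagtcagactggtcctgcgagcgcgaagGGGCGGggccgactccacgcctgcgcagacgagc
Hdac2: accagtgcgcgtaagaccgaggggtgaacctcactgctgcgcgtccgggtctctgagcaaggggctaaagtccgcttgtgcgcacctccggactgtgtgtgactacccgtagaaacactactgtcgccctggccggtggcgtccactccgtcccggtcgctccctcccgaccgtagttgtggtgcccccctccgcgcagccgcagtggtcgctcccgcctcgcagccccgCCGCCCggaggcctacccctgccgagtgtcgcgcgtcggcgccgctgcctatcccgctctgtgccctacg
Neither window holds AGGTCA or CACGTG. That is not so of every covered promoter: the Rbbp4 window, with all 300 bases under the peak of each list, holds CACGTG at 1 place. The Rbbp7 window, covered in part by both lists, holds neither motif. The GC box GGGCGG occurs at 2 places in the Mbd3 window and 1 in the Hdac2 window, and it was likewise present in the Ncor1 and Tbl1xr1 windows, which had no peak.

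Of 17 other corepressor genes with a promoter window in the table, 6 had a peak on one in the vasostatin-2 list and 8 in the PBS list, where 8.42% of protein-coding genes with a window did in the vasostatin-2 list and 13.4% in the PBS list, 6.27% in both. None of the 4 members with a window did, in either list, as was true of 84.5% of protein-coding genes with a window. Hdac3, the member with a peak at its own end in both lists, has no window, so this count leaves out its promoter. Sin3b, Hdac9, Chd4, Mta1 and Zbtb33 had no peak within 10 kb in either list, like Ncor1 and Tbl1xr1. Hdac7, Mta2 and Sap30 had one in the PBS list alone, as Tbl1x did, and Rcor1 in the vasostatin-2 list alone.

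**Figure D4:**
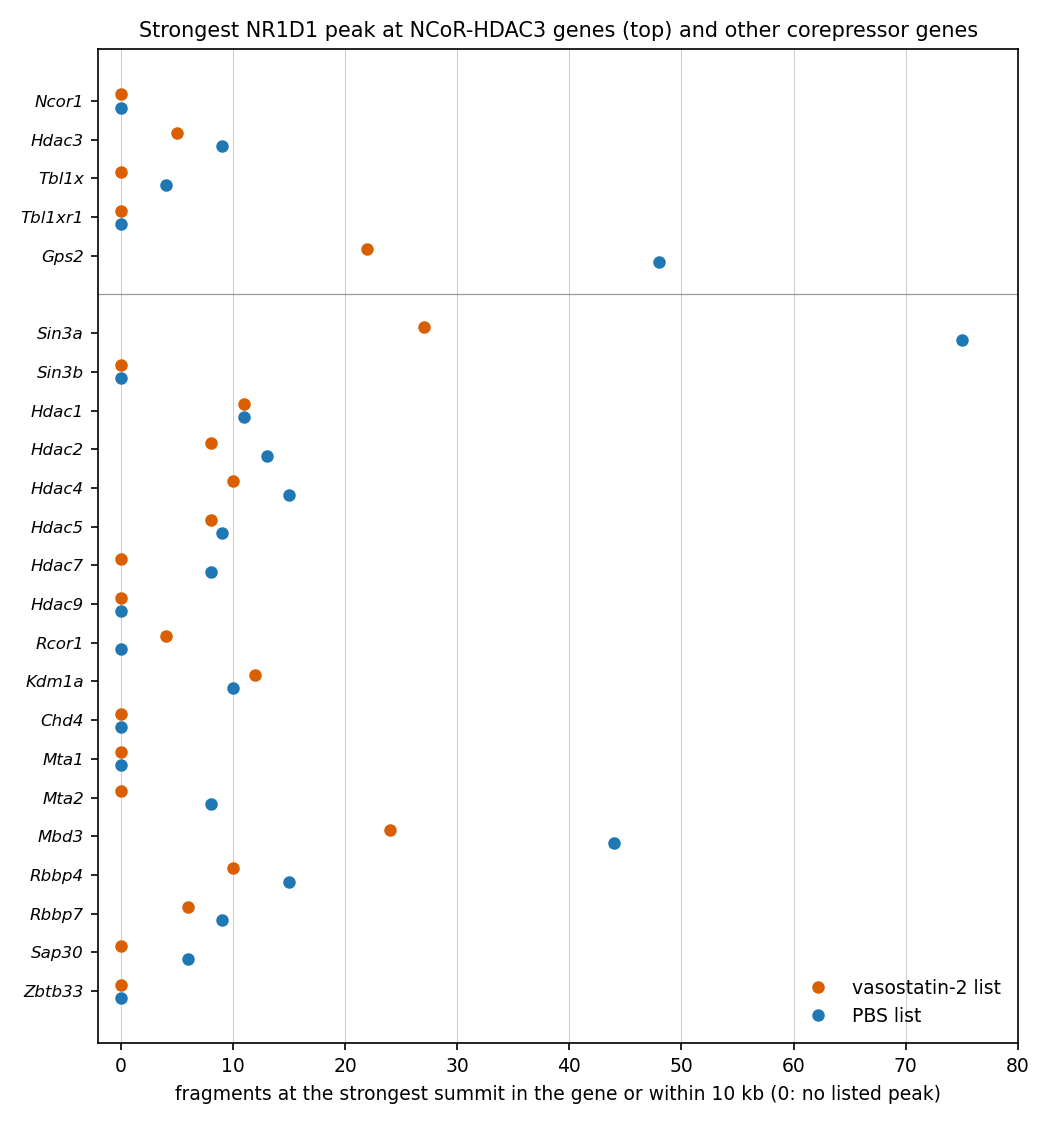
Fragments at the strongest summit in the gene or within 10 kb (x axis; 0 where no peak is listed) for the 5 member genes (top) and 18 other corepressor genes, in the vasostatin-2 list (orange, upper point) and the PBS list (blue, lower point), which may be different sites. Gps2, at 22 and 48 fragments through the site in Eif5a, stands with Sin3a and Mbd3, while Hdac3 and Tbl1x hold 9 fragments or fewer.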

How the data were processed

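CUT&Tag peak lists of 2 NR1D1 libraries were used, 1 after 24 h with vasostatin-2 and 1 after 24 h with PBS; the IgG libraries were not analysed here. Per the submitters' processing notes the tools were MACS2 2.2.7.1, BWA 0.7.17 and Trimmomatic 0.39, with mm10 as the build. Their roles and settings are not given in the sources used here, nor is the use of IgG as a control. The files have no header and follow the caller's column order. The deposited fold enrichment is a ratio of the summit to its local background, and the deposited -log10 p and -log10 q belong to the summit. The deposited score equals the -log10 q times 10, rounded down, and was not used. These are the authors' values, used to describe and rank peaks within a list. Coordinates are the authors', counted from 1.

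Summit fragments are the whole number that, with the deposited fold and -log10 p, solves the caller's Poisson formula, assuming its usual pseudocount. A solution within 0.0005 was found for 99.98% of vasostatin-2 and 99.97% of PBS peaks. Whether the caller counted fragments or extended reads is not given. The lowest background was 0.381 fragments in vasostatin-2 and 0.31 in PBS. Backgrounds moved in steps of 0.0183 in vasostatin-2 and 0.0196 in PBS, read as 1 fragment spread over an assumed window of 10000 bp. Of the backgrounds used for this, those above the lowest and below 1 fragment, 65.7% in vasostatin-2 and 67.5% in PBS lay on such steps. The lowest background divided by the step gave the relative depth of 1.32. This assumes that each background came from the NR1D1 library itself. The check of this was whether the summit's own fragments set a lower limit on its background: at 271 vasostatin-2 and 940 PBS peaks where they could, 0 fell more than 1% below it.

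Gene spans are those of RefSeq on GRCm38.p6 (mm10). A peak counted for a gene when it overlapped the span plus 10 kb, and peaks were shared when they overlapped by at least 1 bp. A pair was at a gene end when both summits lay within 1 kb of an end of a protein-coding gene. Poisson, Wilson and Clopper-Pearson intervals are at 95%. All 5 members and 18 other genes were found in the gene table, and 4 members and 17 other genes in the promoter table, whose sequences are RefSeq's. Strand and starts came from that table. Named genes were the members, other corepressor genes with an end peak in both lists, and up to 3 genes nearest each member pair in fragments; Sin3a, Kdm1a and genes named in counts of 5 or fewer were added after their values were seen. The members and lists were chosen with earlier results of these data known. These processing steps were tested on simulated peaks, whose backgrounds all lay at a floor or on an even grid. Python 3.11.15, scipy 1.17.1 and pandas 2.3.3 were used. Some genes of the comparison list are not reported here, and its counts are over the rest. Alternatives were other windows, a stricter q, other rules for sharing and other scalings.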

Additional observations from a re-analysis of the deposited data

How the results depend on the processing

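The count of peaks near the members depends on the window and the threshold. With 3 kb on each side, and with the gene span alone, 1 member had a peak in the vasostatin-2 list and 1 peak in each list was shared, since the site in Eif5a drops out by construction. With the gene span alone the PBS list held 1 member with a peak and 1 member peak. With q under 1e-05 the vasostatin-2 list held 1 member with a peak, 1 member peak and 1 shared peak, the PBS list 1 shared peak, and 6 of the other corepressor genes had a peak in the vasostatin-2 list and 7 in the PBS list, against 10 and 12. A reciprocal overlap of 50%, or summits within 200 bp, left 1 shared peak in each list, at Gps2, because the Hdac3 pair is offset. The log2 ratio at Gps2 was -0.58 from the authors' fold enrichments. Of 34 recomputed values 15 stayed within 1.5 times the reported count or within the interval of the reported ratio, and the other 19 are those above. The log2 ratios of the Hdac3 pair and of the Gps2 pair, which lies in Eif5a, stayed below 0 under each scaling tried. The depth-scaled interval at Hdac3 included 0. Summits of 4 to 9 fragments limit what can be said of Hdac3 and Tbl1x. No paired analysis was possible because each treatment has 1 NR1D1 library.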

Other observations

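Some corepressor genes outside the NCOR1 complex had stronger or less usual patterns, chosen after their values were seen. Sin3a, the scaffold gene of the SIN3 complex, had 3 shared peaks in each list in the gene or within 10 kb. Its strongest site held 27 fragments in vasostatin-2 and 75 in PBS, a depth-scaled log2 ratio of -1.87 (95% Clopper-Pearson interval -2.56 to -1.22). Of shared gene-end pairs of at least 30 fragments, a class that does not include this pair, 1.70% had a lower ratio. From the authors' fold enrichments the log2 ratio at this site was -0.63. That summit lay inside the Sin3a span, 281 bp from a listed Sin3a start in vasostatin-2 and 409 bp in PBS, and nearer to a start of 2700012I20Rik, at 46 bp in vasostatin-2 and 82 bp in PBS. A second site, in the Sin3a span, held 25 fragments in vasostatin-2 and 41 in PBS, a log2 ratio of -1.11 (-1.89 to -0.36). The sign at this site depends on the measure. From the authors' fold enrichments, 5.39 in vasostatin-2 and 4.97 in PBS, its log2 ratio was 0.12. Its local background was 3.82 fragments in vasostatin-2 and 7.45 in PBS. The third site was outside Sin3a, beside Man2c1, its summit 16 bp from a start of Man2c1os in vasostatin-2 and 30 bp in PBS, with 5 fragments in vasostatin-2 and 8 in PBS. Whether the sites differ in their ratio was not tested.

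Hdac9, the longest gene of the lists at 870 kb, had a peak in neither list. Its length class runs from 109 to 2390 kb, and 34.7% of genes in it had none. The share for genes near 870 kb alone was not computed.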
